A study of Mus musculus with 16 samples.

Results

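Mesoderm from the tip of the mouse forelimb bud was compared across the day in which the hand plate takes shape, from E10.5 to E11.5 (embryonic days). The comparison uses 4 of the 16 polyadenylated RNA libraries of the series, namely the 2 mesoderm libraries of E10.5 and the 2 of E11.5, chosen by their labels alone. All embryos were of the B6 strain and were untreated, with no allele or agent named in the labels. For every library the outermost 150 microns of the forelimb were cut off, loosened in cold trypsin, and split into ectoderm and mesoderm by hand. The ectoderm of the same 2 stages (4 libraries from the same embryo batches) serves for comparison, and the mesoderm at E9.5 and E12.5 shows where each level came from and went to. The slice keeps the same thickness at each stage, while the bud grows, and a change in the sampled region and a change within cells cannot be told apart. In bulk RNA, fewer cells of a type and less RNA per cell cannot be told apart either.

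In the limb bud, growth and patterning are tied by signals between the posterior mesenchyme, which secretes Sonic hedgehog, and the apical ectodermal ridge, which secretes fibroblast growth factors (FGFs). Genes at the 5′ end of the HoxA and HoxD clusters act in 2 phases, an early one that patterns the upper limb and a late one, led by Hoxa13 and Hoxd13, that patterns the hand. As the hand plate widens, mesenchyme condenses into digit rays under Sox9, while bone morphogenetic protein (BMP) and retinoic acid signals mark the tissue between the rays, which later dies.

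Total gene counts of the 4 libraries ran from 13757502 to 30438214. Levels are given as CPM, in the order replicate 1, replicate 2. CPM is the count per 1000000 of a library's effective size, which is its total count adjusted by its TMM factor. For E11.5 replicate 2 the total was 13757502 and the effective size 15017000. The libraries carried the defining markers of their label. The summed level of 6 markers of limb mesenchyme was 1839 and 1695 CPM at E10.5 and 1958 and 1943 CPM at E11.5. The sum of 8 surface epithelium markers was 39.5 and 16 CPM at E10.5 and 40.0 and 26.4 CPM at E11.5, against 1627 to 2869 CPM in the 8 ectoderm libraries. Blood was present in every mesoderm library, with 6 erythroid markers summing to 4068 and 3378 CPM at E10.5 and to 3330 and 3229 CPM at E11.5. The muscle genes Myod1 and Myog were at 0 in all 4 libraries. In the ectoderm, E11.5 replicate 1 stood apart through its limb mesenchyme transcripts, with Prrx1 at 118 CPM against 34.2 CPM in replicate 2. That library takes part in the shared estimate of the spread, and the fit was repeated without it. In that fit more genes were called over all tested genes, and the rise was not particular to any list. The BMP, WNT, limb mesenchyme, retinoic acid, proximal and heterochronic lists described below held more called members there. The interdigit list held as many as before.

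The place of each E11.5 library between E10.5 and E12.5 was measured within its own replicate number, from the E10.5 and E12.5 libraries of that number. Among 710 genes that differed by at least 1 log2 unit between E10.5 and E12.5 mesoderm, chosen without the E11.5 libraries, the median gene of E11.5 replicate 1 had covered 59.8% of that distance (quartiles 43.3% and 76.7%). In E11.5 replicate 2 the median was 39.3% (quartiles 26.8% and 52.6%). Replicate 1 had the larger percentage for 582 of the 710 genes (82.0%). The difference was alike for genes that go up (532 genes, medians 58.3% and 38.9%) and for genes that go down (178 genes, 62.1% and 40.5%). The replicate number also marks the version of the RNA kit. The measure was taken on log2(CPM + 1). A kit shift of a gene that is equal at all stages on the log2 scale therefore cancels only where levels are well above 1 CPM. For genes with low levels at a stage it cancels only in part. Embryo age cannot be told apart from this remainder or from a kit effect that differs between stages.

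**Figure D1:**
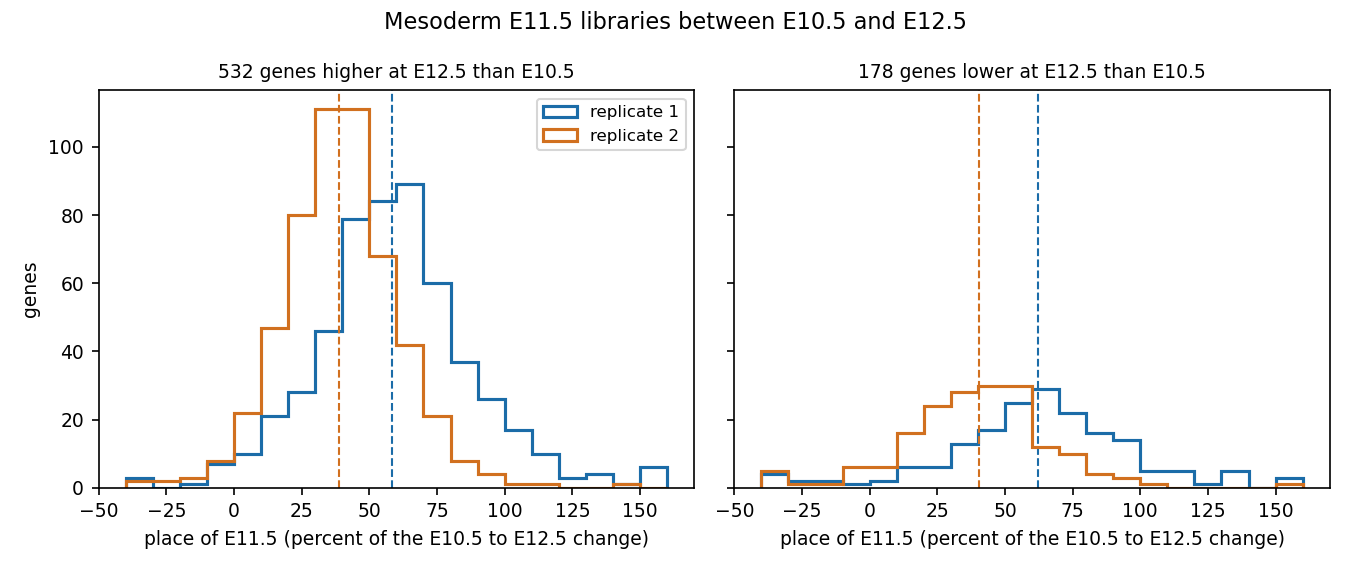
Place of each E11.5 mesoderm library between the E10.5 library (0 percent) and the E12.5 library (100 percent) of the same replicate number, on the log2 scale, as a histogram over genes (y axis, number of genes), for 532 genes that are higher and 178 that are lower at E12.5; values beyond the axis are drawn in the last bin. The dashed lines are medians, at 58.3% and 38.9% in the left panel and 62.1% and 40.5% in the right, with the higher median in replicate 1 in both.

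The comparison asked which genes of the distal mesoderm change as the hand plate forms. With the replicate number as a block, 746 of 15501 genes (4.81%) passed an adjusted p of 0.05 (edgeR quasi-likelihood test, Benjamini-Hochberg adjustment over all tested genes), and a gene is called higher or lower below when it did so. At E11.5, 471 genes were higher (3.04%) and 275 were lower (1.77%). The median log2 fold change was 1.31 among the higher and -0.85 among the lower genes, and 128 genes (0.826%) also passed a test against a fold of 1.5. The groups did not overlap for 707 of the 746 called genes, but this is common, since all E11.5 values lay above for 2945 of all 15501 genes (19%) and below for 2260 (14.6%). Among the higher genes, 398 of 471 had more RNA in E11.5 replicate 1 than in replicate 2.

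These counts rest on the block and on replicate 1. Without the block, 43 genes were higher and 18 lower. With E10.5 replicate 1 left out, 4 were higher and 6 lower, and with E11.5 replicate 1 left out, 22 and 5. Leaving out E10.5 replicate 2 gave 255 and 194, and leaving out E11.5 replicate 2 gave 584 and 433. A fit on the 8 mesoderm libraries gave 432 higher and 277 lower, and leaving out ectoderm E11.5 replicate 1 gave 684 and 400. The fit on the 8 mesoderm libraries kept 332 of the 471 higher and 209 of the 275 lower genes of the main fit. Its other calls were genes not called in that direction in the main fit. Of 193 genes named by rule, 111 were called, and none changed direction while called under any of the settings tried. Meis2, Mest, Nnat and Sulf1 were the 4 of these 111 genes that stayed called whichever of the 4 libraries was left out.

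**Figure D2:**
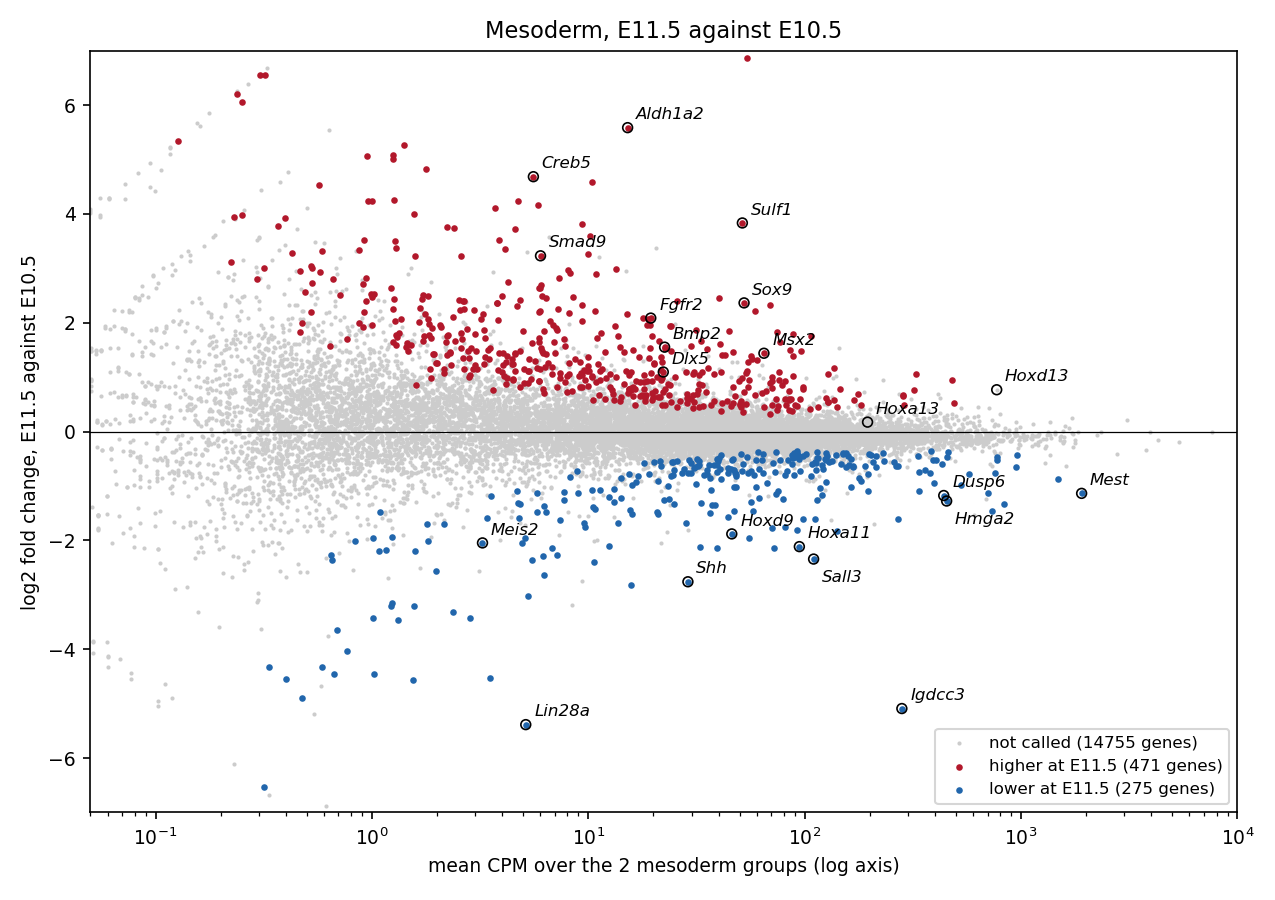
Fitted log2 fold change of E11.5 against E10.5 mesoderm (y axis) against the mean CPM of the 2 groups (x axis, log scale), 1 point per gene, with called genes in red and blue and genes of the text circled; 290 genes fall outside the drawn range. Aldh1a2 (5.59), Creb5 (4.69) and Sulf1 (3.83) are high among the red points, Lin28a (-5.39) and Igdcc3 (-5.09) low among the blue, while Hoxd13 and Hoxa13 lie among the grey.

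Most of the genes with the largest rises had been under 2 CPM at E10.5. Aldh1a2 (chr9:71215789-71296243, plus strand, mm10), the enzyme that makes retinoic acid, stood at 0.138 and 1.43 CPM at E10.5 and at 41.7 and 17.5 CPM at E11.5 (5.59 log2, SE 0.82, adjusted p = 0.00475). It had been at 30.1 CPM at E9.5 and reached 156 CPM at E12.5, so its mean was lowest at E10.5. Creb5, a transcription factor, went from 0.345 and 0.546 to 16.3 and 5.13 CPM (4.69, SE 0.63), and was at 79.2 CPM at E12.5. Sulf1 (chr1:12692277-12861192, plus strand) trims sulfate groups from heparan sulfate outside the cell and so alters how growth factors are held there. It stood at 5.18 and 8.73 CPM at E10.5 and at 126 and 66.0 CPM at E11.5 (3.83, SE 0.38, adjusted p = 0.00105), with every E11.5 library above every E10.5 library. The other genes with the 12 largest rises were Tmem30b, a subunit of lipid flippases (0.345 and 1.57 against 19.4 and 20.2 CPM), the neurturin receptor Gfra2, Scrn1, the desmosomal cadherin Dsc3, Stmn2, Samd12, the BMP relatives and binders Gdf10 and Bmper, and Sp9. Their log2 fold changes ran from 3.36 (Sp9) to 4.58 (Tmem30b). In 10 of these 12 genes E11.5 replicate 1 held more RNA than replicate 2 by over 1.5 times, the exceptions being Tmem30b and Samd12.

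The largest falls were in genes of the early bud. Igdcc3, a surface protein of the immunoglobulin family, fell from 759 and 332 CPM at E10.5 to 7.32 and 26.6 CPM at E11.5 (-5.09, SE 0.69, adjusted p = 0.00303), after 1227 CPM at E9.5. Prtg, a related surface protein, stood at 28.5 and 25.9 CPM and then at 2.17 and 6.59 CPM (-2.82, SE 0.45). The secreted kinase gene Pkdcc had already dropped from 486 CPM at E9.5 to 8.63 and 9.96 CPM at E10.5, and stood at 0.798 and 1.60 CPM at E11.5. For Prtg and Pkdcc most of the decline lay before E10.5, Prtg having been at 331 CPM at E9.5. Gbx2, a homeobox gene, went from 9.38 and 4.02 to 0.133 and 0.466 CPM (-4.53, SE 0.62). BC023719 had 296 counts over the E10.5 libraries and 0 over the E11.5 libraries, which is at least 84.9-fold lower against a floor of 3 counts over the group. D130058E05Rik, Tgm3, Zbtb16 and Ccdc3 were the other genes named at this end, with log2 fold changes from -3.43 to -2.36.

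**Figure D3:**
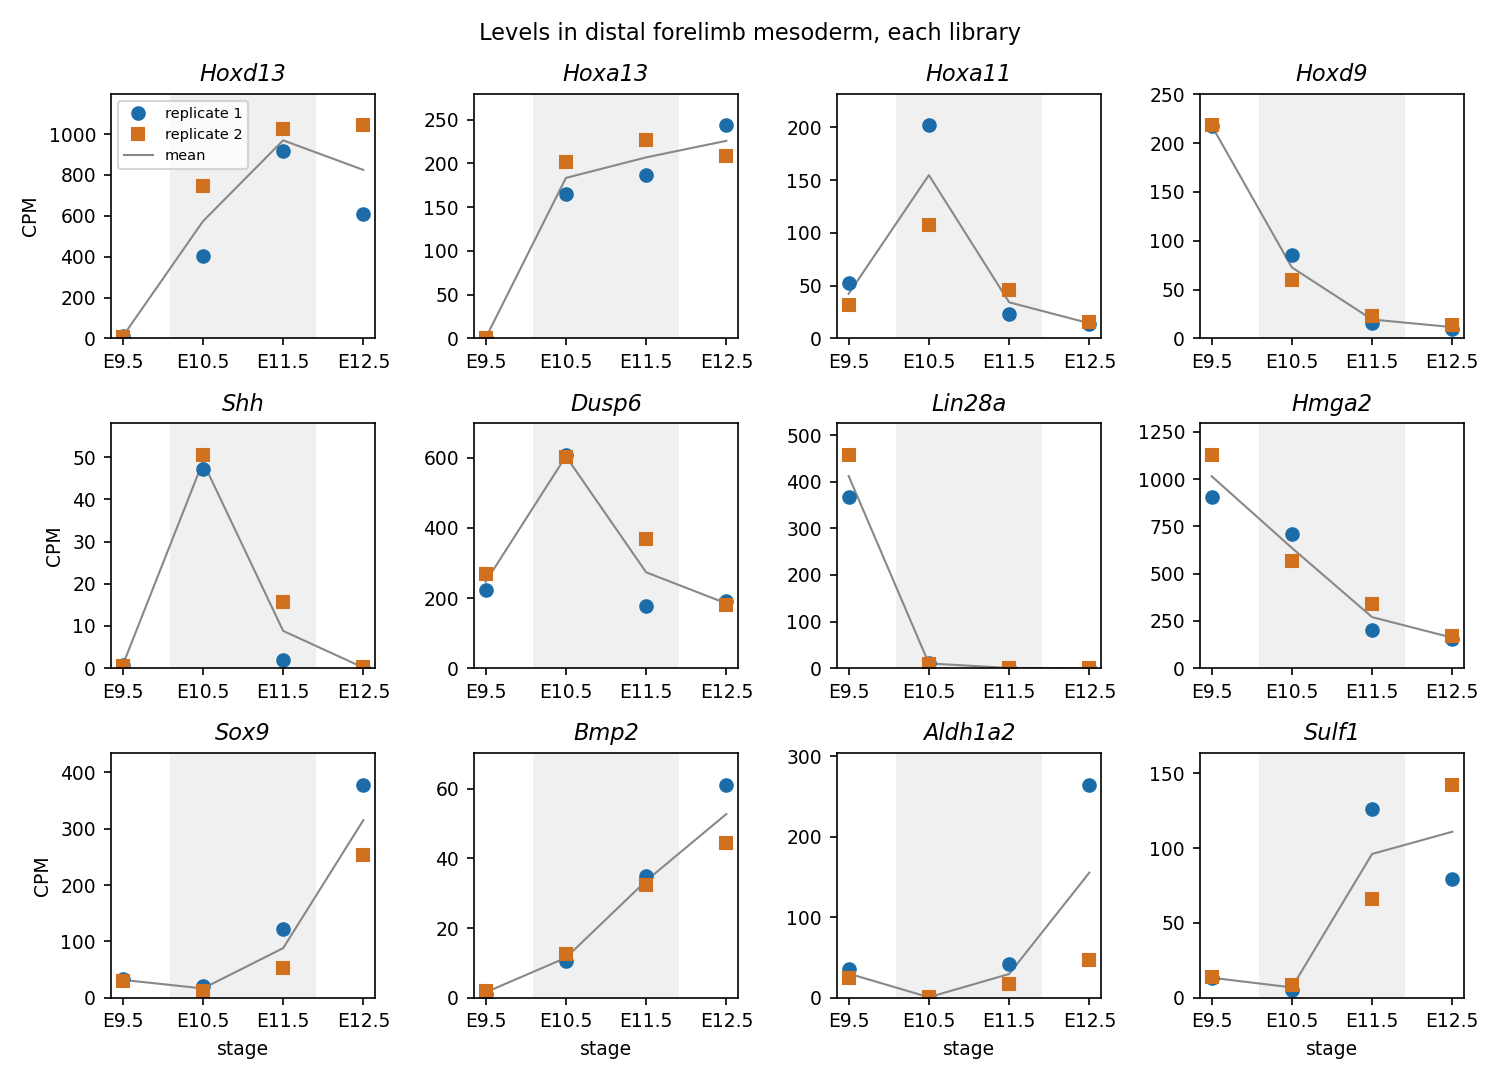
CPM (y axis, from 0) of 12 genes in each mesoderm library at the 4 stages (x axis), with circles for replicate 1, squares for replicate 2 and a line through the means; the grey band marks the 2 stages compared. Hoxa11, Hoxd9, Shh, Dusp6, Lin28a and Hmga2 fall within the band, Sox9, Bmp2, Aldh1a2 and Sulf1 climb, and the fitted changes of Hoxd13 and Hoxa13 are 1.70-fold and 1.13-fold.

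The hand genes of the Hox clusters were already on at E10.5. Hoxd13 (chr2:74668310-74671599, plus strand) stood at 401 and 745 CPM at E10.5 and at 916 and 1023 CPM at E11.5, after 9.24 CPM at E9.5. The groups did not overlap, but the change of 0.77 log2 (SE 0.61) was not called (adjusted p = 0.525). It was called without ectoderm E11.5 replicate 1 (0.82, adjusted p = 0.0223). Hoxa13 stood at 165 and 202 CPM and then at 187 and 227 CPM (0.17, SE 0.52, adjusted p = 0.893), so the 2 groups overlapped. Hoxd12 (317 and 340.0, then 586 and 446 CPM) and Evx2, the homeobox gene beside Hoxd13 (20.1 and 65.8, then 64.3 and 95.0 CPM), were not called either. Evx2 was called in the fit on the 8 mesoderm libraries (1.10, adjusted p = 0.0265).

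Among the 5′ Hox genes of the early phase, Hoxa11 and Hoxd9 were lower, while Hoxa9, Hoxa10, Hoxd10 and Hoxd11 were not called (log2 fold changes of -0.82, -0.37, -0.61 and -0.35). Hoxa11 (chr6:52242106-52245810, minus strand), which patterns the forearm, stood at 202 and 108 CPM at E10.5 and at 22.7 and 45.7 CPM at E11.5 (-2.11, SE 0.36, adjusted p = 0.00744). Hoxd9 stood at 85.6 and 59.8 CPM and then at 16.2 and 22.5 CPM (-1.88, SE 0.45, adjusted p = 0.035). Every E11.5 value of both genes lay under every E10.5 value. Neither gene stayed called without E10.5 replicate 1 or without E11.5 replicate 1 (adjusted p = 0.142 and 0.0811 for Hoxa11, 0.295 and 0.491 for Hoxd9). Hoxa11 also lost its call with the 4 compared libraries alone (0.071). Hoxd9 also lost it with DESeq2 (0.0811), without E10.5 replicate 2 (0.0814), in the FPKM fits (0.0646 and 0.105) and against a fold of 1.5 (0.156), and both did without the block. Of the 10 measured genes of the HoxD list, which holds Evx2, none was higher and 3 were lower, beside 1.77% lower of all genes. Besides Hoxd9 these were Hoxd3 and Hoxd4, with a list median of -1.24 beside 0.00 over all tested genes. In the HoxA list with Evx1, Hoxa11 was the 1 of 12 that was lower, and the median was -0.76. Hoxc6 was the 1 lower gene of 9 in the HoxC list, at 3.21 and 1.23 CPM and then 0.310 and 0.200 CPM, and none of 9 HoxB genes was called by edgeR or DESeq2, with 0 at an unadjusted p under 0.05. Whether counting used strand is not stated, so reads of these genes and of the antisense transcripts of the clusters may be mixed.

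Of 15 proximal factors, which mark the upper limb and the early bud, 4 were lower (beside 1.77% of all genes) and none was higher, and 7 had a positive fold change. Meis1 and Meis2, homeobox genes of the proximal limb, had dropped at E10.5 from 84.8 and 259 CPM at E9.5. Meis2 stood at 4.35 and 6.14 CPM at E10.5 and at 1.15 and 1.33 CPM at E11.5 (-2.05, SE 0.23, adjusted p = 0.0016). Meis1 stood at 2.93 and 3.75 CPM and then at 1.20 and 0.733 CPM (-1.69, SE 0.35). Tshz2 and Pbx3 were the other lower members, and the list median was -0.53. Shox2, a gene of the upper limb skeleton, was at 36.4 and 35.9 CPM and then at 5.76 and 14.1 CPM, and did not pass (adjusted p = 0.059), though it did without ectoderm E11.5 replicate 1 (0.0387).

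The factors of limb mesenchyme changed in both directions. Of 38 measured members 5 were higher and 4 lower, beside 3.04% and 1.77% of all genes, with a median of -0.24. Sall1 and Sall3, zinc finger genes of the distal bud, were among the lower. Sall3 stood at 231 and 135 CPM at E10.5 and at 30 and 43.8 CPM at E11.5 (-2.34, SE 0.33, adjusted p = 0.00359). Sall1 stood at 440.3 and 361 CPM and then at 91.9 and 182 CPM (-1.60, SE 0.30). Alx4, of the anterior mesenchyme, was lower as well, at 79.6 and 52.9 CPM and then 19.8 and 23.8 CPM (-1.56, SE 0.36). On the higher side were Dlx5 and Dlx6, a pair of neighbouring homeobox genes, with Dlx5 at 12.8 and 15.6 CPM and then 36.6 and 23.8 CPM (1.10, SE 0.18, adjusted p = 0.00667). Pax9, an anterior limb marker, stood at 2.52 and 3.14 CPM and then at 7.09 and 15.5 CPM (1.91, SE 0.34). Msx2 and Snai2 completed the 5, while Prrx1, Tbx5, Lhx9, Hand2 and Tbx3 were not called.

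Shh (chr5:28456815-28467256, minus strand) was lower. It stood at 47.3 and 50.5 CPM at E10.5 and at 1.86 and 15.8 CPM at E11.5 (-2.76, SE 0.65, adjusted p = 0.0354), and its mean was 0.683 CPM at E9.5 and 0.113 CPM at E12.5. The 2 E11.5 libraries differ by over 8 times, with the lower value in replicate 1. Shh was not called without E10.5 replicate 1 or without E11.5 replicate 1 (adjusted p = 0.309 and 0.283). The call also ended with DESeq2 (0.0867), with the 4 compared libraries alone (0.0848), without E10.5 replicate 2 (0.0757), against a fold of 1.5 (0.12) and without the block (0.269). The standard readouts of the pathway were not called. Gli1, a target and effector, stood at 45.5 and 85.1 CPM and then at 57.5 and 76.6 CPM (0.09, SE 0.30, adjusted p = 0.909), and the receptor and target Ptch1 at 151 and 188 CPM and then at 75.2 and 175 CPM (-0.54, SE 0.29, adjusted p = 0.327). Their means at E12.5 were 19.2 and 56.5 CPM. Of the 15 pathway genes Disp1, which releases the ligand from cells, was also lower (-0.69, SE 0.13), and the co-receptor Cdon was higher (0.80, SE 0.18). Beside these 2 lower and 1 higher members, 1.77% of all genes were lower and 3.04% higher. Grem1, the BMP antagonist that links Shh to the ridge, stood at 62.4 and 52.9 CPM and then at 14.0 and 62.1 CPM, with overlapping groups and no call (adjusted p = 0.438).

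Of 22 genes of FGF signalling 2 were higher and 4 lower, beside 3.04% and 1.77% of all genes, with a median of -0.26. Dusp6, a phosphatase that acts as feedback on this pathway, stood at 608 and 601 CPM at E10.5 and at 179 and 368 CPM at E11.5 (-1.18, SE 0.23, adjusted p = 0.0158). The groups did not overlap, and Dusp6 was not called without E10.5 replicate 1 or without E11.5 replicate 1 (adjusted p = 0.186 and 0.159). The feedback genes Il17rd (-0.76, SE 0.16), Dusp4 (-0.75, SE 0.17) and Spry2 (-0.52, SE 0.13) were lower as well. Etv4, another target, was not called (-0.41, SE 0.16, adjusted p = 0.158), and neither was the mesodermal ligand Fgf10 (0.29, SE 0.49). The receptors Fgfr2 and Fgfr3 were higher. Fgfr2 stood at 7.35 and 7.71 CPM and then at 41.9 and 20.8 CPM (2.09, SE 0.31, adjusted p = 0.00419). Fgfr3 stood at 2.93 and 5.39 CPM and then at 19.2 and 15.4 CPM (2.21, SE 0.31).

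In the BMP pathway 3 of 23 genes were higher and none lower, beside 3.04% and 1.77% of all genes, with a median of 0.48, and 7 were higher in the fit on the 8 mesoderm libraries. Bmp2 is a ligand of the interdigital tissue and the posterior bud. It stood at 10.4 and 12.6 CPM at E10.5 and at 34.8 and 32.3 CPM at E11.5 (1.55, SE 0.26, adjusted p = 0.0079). The replicates lay close together and the groups well apart, yet without E10.5 replicate 1 the adjusted p was 0.182, and without E11.5 replicate 1 it was 0.0829. Smad9, a receptor-activated mediator, stood at 1.10 and 1.23 CPM and then at 13 and 8.72 CPM (3.23, SE 0.41, adjusted p = 0.00228). Id1, a direct target of the pathway, stood at 90.7 and 71.8 CPM and then at 220.2 and 129 CPM (1.07, SE 0.23). The ligands Bmp4 (-0.38, SE 0.22) and Bmp7 (-0.43, SE 0.14) were not called. Inhba, a subunit of activin, had 3 counts over the E10.5 libraries and 96 over the E11.5 libraries, a ratio of 37.2 (95% counting interval 12.3 to 183), and reached 29.5 CPM at E12.5.

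Of 38 WNT pathway genes 2 were higher and 2 lower, beside 3.04% and 1.77% of all genes, with a median of 0.07. Rspo4, a secreted enhancer of WNT signals, fell from 71.9 and 36.3 CPM to a mean of 11.7 CPM (-2.13, SE 0.45), and Wif1, a secreted inhibitor, rose from 12.8 and 12.7 CPM to 70.1 and 30.6 CPM (1.86, SE 0.43). The other 2 called genes were Wnt11, which was higher, and Sp5, with 53 counts over the E10.5 libraries and 2 over the E11.5 libraries. Wnt5a, the ligand that directs outgrowth, was at 478 and 550.1 CPM and then at 578 and 654 CPM (0.26, SE 0.14, adjusted p = 0.315). The feedback gene Axin2 was not called (-0.25, SE 0.23). None of 18 Notch pathway genes was called by edgeR or by DESeq2 at an adjusted p of 0.05, and 4 had an unadjusted p under 0.05. Other edgeR fits did call members. Without ectoderm E11.5 replicate 1 the ligand gene Dll1 (0.518 and 0.682, then 1.33 and 1.53 CPM) was called higher (1.28, adjusted p = 0.0411) and the feedback gene Nrarp lower (-0.52, adjusted p = 0.0436), and with no low-count filter 1 member was higher and 2 were lower.

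Of 18 retinoic acid genes 2 were higher and 1 lower, beside 3.04% and 1.77% of all genes, with a median of 0.25. Beside Aldh1a2, the synthesis enzyme described above, Stra6, which takes up retinol, was higher, at 17.9 and 8.87 CPM and then 41.8 and 18.1 CPM (1.13, SE 0.28, adjusted p = 0.0363). Crabp1, which binds retinoic acid inside the cell, was lower, at 298 and 145 CPM and then 61.1 and 58.6 CPM (-1.82, SE 0.22, adjusted p = 0.00181). Cyp26b1, the enzyme that breaks retinoic acid down in the distal bud, stood at 958 and 830.1 CPM and then at 491 and 646 CPM. Its groups did not overlap and it did not pass (-0.63, SE 0.19, adjusted p = 0.0794), but it was called without ectoderm E11.5 replicate 1 (0.0287) and by DESeq2 (0.023). Cyp26a1, another enzyme that breaks retinoic acid down, stood at 0.518 and 0.273 CPM and then at 2.17 and 0.999 CPM. It did not pass either (1.93, SE 0.53, adjusted p = 0.0566), and was called without ectoderm E11.5 replicate 1 (0.0323) and by DESeq2. Aldh1a2 was not called without E10.5 replicate 1 (3.65, adjusted p = 0.112) or without E11.5 replicate 1 (5.37, adjusted p = 0.0638).

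Of 24 measured cartilage genes 8 were higher and none lower, beside 3.04% of all genes, with a median of 0.35, and 16 were not called. The number higher was 0 without E10.5 replicate 1, 1 without E11.5 replicate 1, 3 without the block and 4 against a fold of 1.5. Sox9 (chr11:112782224-112787760, plus strand), which commits mesenchyme to cartilage, stood at 20.8 and 12.6 CPM at E10.5 and at 123 and 53.6 CPM at E11.5 (2.37, SE 0.33, adjusted p = 0.00313), on the way to 315 CPM at E12.5. Col2a1, the main collagen of cartilage and a target of Sox9, stood at 40.9 and 20.3 CPM and then at 120.2 and 44.7 CPM (1.38, SE 0.29, adjusted p = 0.0196). Its level in ectoderm, given below, was far higher at both stages. In each gene the E11.5 replicate 1 library held over 2 times the level of replicate 2. Without E10.5 replicate 1 and without E11.5 replicate 1, the adjusted p was 0.0701 and 0.0563 for Sox9, and 0.167 and 0.390 for Col2a1. The 3 chains of collagen IX were higher (Col9a1, Col9a2 and Col9a3), with Col9a3 at 1.55 and 2.05 CPM and then 19.6 and 5.93 CPM (2.81, SE 0.38). So were Runx1 (2.25, SE 0.31) and the sulfate chain enzymes Papss2 (1.48, SE 0.29) and Chst11 (1.12, SE 0.22). Acan, the aggrecan of mature cartilage, stayed between 0.266 and 0.798 CPM in the 4 libraries.

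Among 14 joint and digit genes Nfix, a transcription factor, was higher (2.97, SE 0.42) and Enpp2, which makes lysophosphatidic acid, was lower (-2.15, SE 0.46). Of all genes 3.04% were higher and 1.77% lower. Gdf5, the signal of the future joints, stood at 4.62 and 2.66 CPM and then at 13.8 and 6.86 CPM, and missed the threshold (1.49, SE 0.42, adjusted p = 0.063). It was called without ectoderm E11.5 replicate 1 (adjusted p = 0.0294). Of 29 tendon and connective tissue genes 3 were higher, beside 3.04% of all genes, and none lower, with a median of 0.21. All 3 were matrix genes (Col5a1, Fbn1 and Postn). Col5a1, a collagen that starts fibrils, stood at 91.8 and 70.9 CPM and then at 267 and 119 CPM (adjusted p = 0.00549). The tendon factor Scx was not among the called members.

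In the list of interdigit and cell death genes 5 of 21 were higher (beside 3.04% of all genes) and none lower, with a median of 0.36. Of these, 3 were described above or belong to other lists too (Aldh1a2, Bmp2 and Msx2). Msx2, a BMP target of the dying tissue, stood at 43.4 and 25.2 CPM and then at 132 and 58.3 CPM (1.44, SE 0.26, adjusted p = 0.0107). Msx2 lost its call without the block (adjusted p = 0.172) and against a fold of 1.5 (0.0726). Its log2 change was 0.98 without E11.5 replicate 1 and 1.78 without E11.5 replicate 2. Bmf, which promotes cell death by binding Bcl2 proteins, stood at 25.8 and 13.4 CPM and then at 87.4 and 35.5 CPM (1.61, SE 0.31). Mmp11, a matrix protease, was the other (1.07, SE 0.18). The lists of interdigit, BMP and retinoic acid genes share these members, so their counts are not separate evidence.

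**Figure D4:**
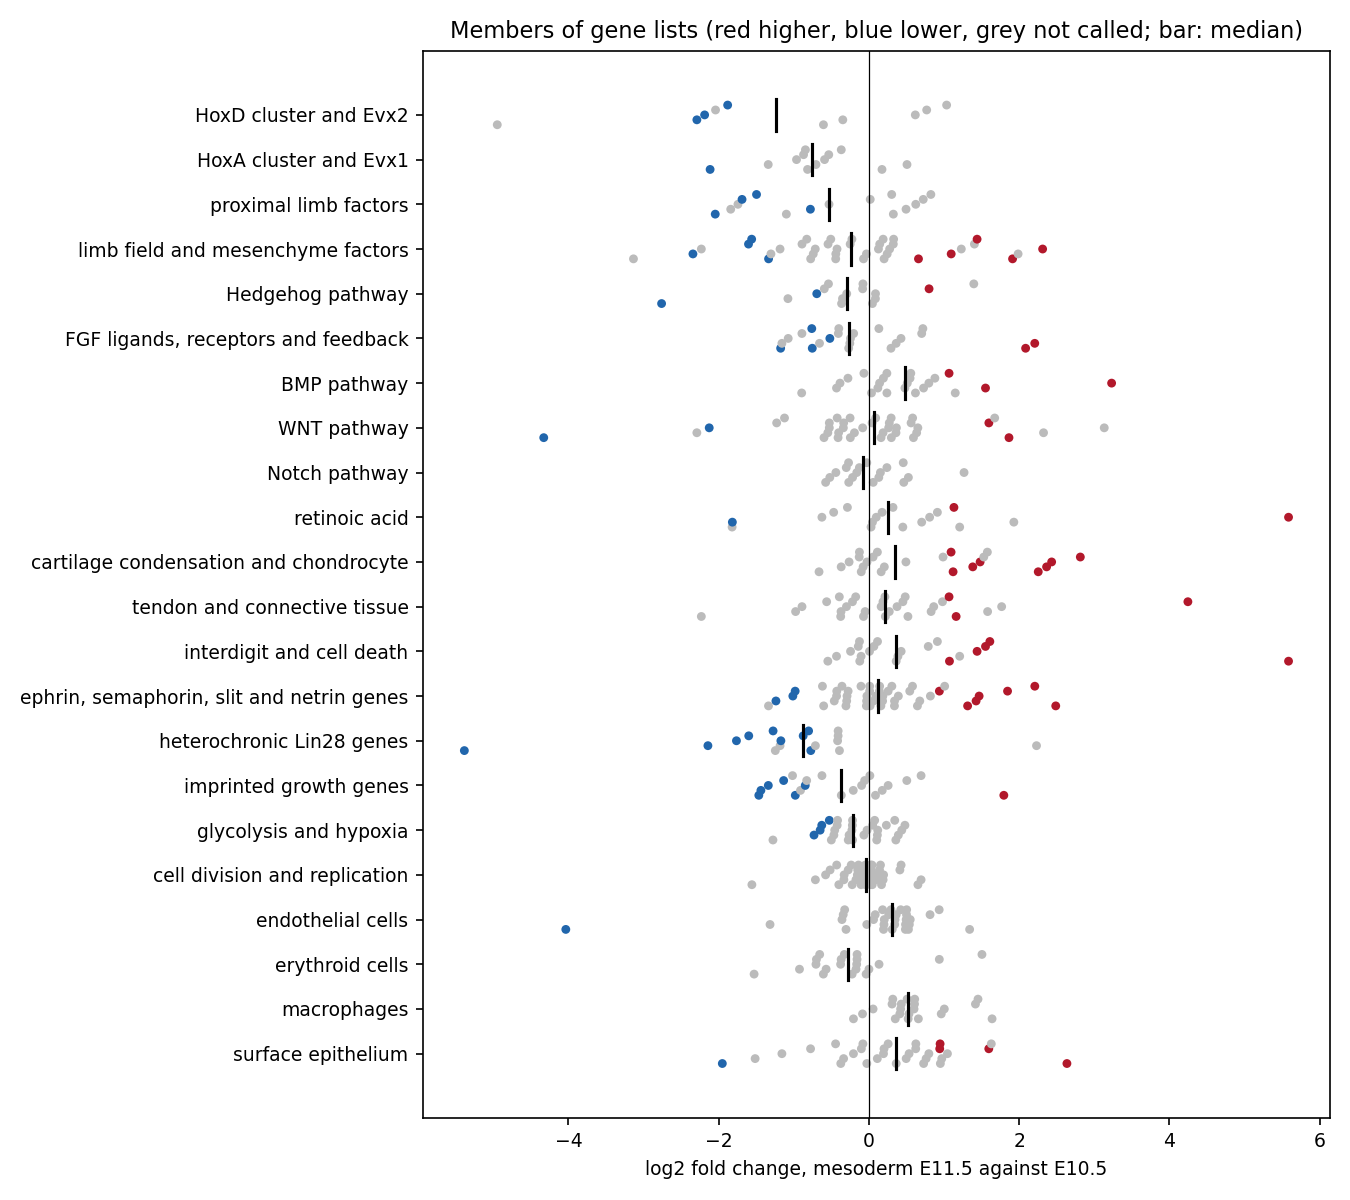
Fitted log2 fold change of each tested member (x axis) of 22 gene lists (y axis), 1 point per gene, red when higher, blue when lower and grey when not called at E11.5, with the list median as a black bar. Red points are most numerous in the cartilage (8 of 24) and guidance (7 of 46) lists, beside 3.04% of all genes, and the interdigit list holds 5 of 21. Blue points are most numerous in the heterochronic (9 of 17) and imprinted (6 of 21) lists, beside 1.77% of all genes. The smaller HoxD and proximal lists hold 3 of 10 and 4 of 15 blue points, and cell division (0 of 42) is grey throughout.

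Guidance receptors and ligands, which steer cells and growing nerves, held 7 higher and 3 lower genes of 46, beside 3.04% and 1.77% of all genes, with a median of 0.12. Epha3, a receptor for ephrins, stood at 15.6 and 27.4 CPM at E10.5 and at 90.4 and 102 CPM at E11.5 (2.21, SE 0.27, adjusted p = 0.00161). It was among the few rises where E11.5 replicate 2 was the higher library, and it was back at 43.8 CPM at E12.5. The Eph receptors Epha1 and Epha2 fell, Epha1 from 37.6 and 28.9 CPM to 14.5 and 13.7 CPM (-1.24, SE 0.15) and Epha2 from 85.3 and 74.8 CPM to 32.7 and 46.6 CPM (-1.01, SE 0.23). Sema6a (1.47, SE 0.18), the netrin receptor Unc5c (1.85, SE 0.27) and Robo2 (1.31, SE 0.34) were higher and kept climbing, to 214, 252 and 275 CPM at E12.5. Among 35 adhesion genes Fat4, a giant cadherin of planar polarity, was higher (44.5 and 58.6, then 174 and 106 CPM), as was Cdh3, and the integrin chains Itga1, Itgav and Itgb1 were lower. Of 24 protease and inhibitor genes 3 were higher (Mmp11, Timp2 and Has3, which makes hyaluronan) and Adamts1 was lower.

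Of the heterochronic genes, 9 of 17 fell. Lin28a and Lin28b are RNA-binding proteins of early embryos that block the maturation of let-7, a family of microRNAs that in turn silence Lin28 and its companions. Lin28a stood at 11 and 9.0 CPM at E10.5 and at 0.177 and 0.333 CPM at E11.5 (-5.39, SE 0.83, adjusted p = 0.00481), the end of a fall from 412 CPM at E9.5. Lin28b stood at 62.0 and 62.8 CPM and then at 8.29 and 24.0 CPM (-2.14, SE 0.35, adjusted p = 0.00625). Hmga2, a chromatin protein and a classic let-7 target, stood at 707 and 565 CPM and then at 199.9 and 339.6 CPM (-1.28, SE 0.19, adjusted p = 0.00429). In all 3 genes both E11.5 libraries lay below both E10.5 libraries, with the lower E11.5 value in replicate 1. Without E10.5 replicate 1 the adjusted p was 0.0876, 0.118 and 0.0912, and without E11.5 replicate 1 it was 0.121, 0.149 and 0.0829, in the same order.

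Of the 17 members of this list 9 were lower and none higher, against 1.77% of all genes that were lower, with a median of -0.88. The list was compiled with earlier results of these libraries known, so its direction is a description. The other lower members were the ubiquitin ligase Trim71 (95.0 and 118, then 20.5 and 48.7 CPM), the chromatin factors Arid3a and Arid3b, the RNA-binding Igf2bp1, E2f5 and the DNA methyltransferase Dnmt3b. The 1 member with a positive change, Utf1, had 1 count over the E10.5 libraries and 5 over the E11.5 libraries. The summed level of the 17 genes was 3668 and 3030 CPM at E10.5 and 1667 and 2167 CPM at E11.5.

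No microRNA was measured in these libraries. To show what a let-7 match in these transcripts looks like, 4 mature family members are given first, from RefSeq (GRCm38.p6), with the seed (bases 2 to 8) in capitals. In all, 10 of the 23 microRNAs looked up share the seed GAGGUAG.
mmu-let-7a-5p: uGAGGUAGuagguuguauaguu
mmu-let-7d-5p: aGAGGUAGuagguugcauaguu
mmu-let-7i-5p: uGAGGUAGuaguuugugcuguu
mmu-miR-98-5p: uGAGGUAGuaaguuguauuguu
The match in a transcript is CTACCTC, the reverse complement of the seed, searched on the transcript strand only, and its longer form is CTACCTCA. Below is 1 site from the annotated 3′ UTR of each of 7 genes that were lower, with the match in capitals, from GENCODE M21 (mm10).
Lin28a, chr4:134005189-134005213, minus strand: gtgcacagcctgttgaaCTACCTCA
Lin28b, chr10:45381022-45381046, minus strand: tcacccgggcgggaagtCTACCTCA
Hmga2, chr10:120364224-120364248, minus strand: gcgccgacattcaatttCTACCTCA
Trim71, chr9:114512472-114512496, minus strand: acaacattgcctaagtcCTACCTCA
Igf2bp1, chr11:95961778-95961802, minus strand: gtgctgtgcgaagtaaaCTACCTCA
Arid3b, chr9:57790361-57790385, minus strand: tatatttcaataaagctCTACCTCt
Igdcc3, chr9:65185705-65185729, plus strand: gttgtgactctcagcacCTACCTCA
The Arid3b site lacks the final A. Igdcc3 is in no list, and is shown because it had the steepest fall among genes above 100 CPM.

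Matches were more frequent in genes that were lower. The 7-letter match was in the 3′ UTR of 51 of 265 lower genes (19.2%), 46 of 461 higher genes (9.98%) and 10.8% of all tested genes with an annotated 3′ UTR. The 8-letter match was in 10.6% of the lower, 4.34% of the higher and 3.83% of all genes. Outside the heterochronic list the shares in lower genes were 16.8% and 8.59%. The same letters in reverse (CTCCATC), which match no let-7 seed, were in 15.8% of lower, 16.5% of higher and 13.9% of all genes. Per kilobase, however, the 7-letter match (0.155 in lower, 0.0736 in all genes) and the reversed letters (0.155 and 0.0973) were both more frequent in lower genes, and outside the list the reversed letters (0.163) were denser than the match (0.115). Within the list 13 of 17 genes held the 7-letter match, and 8 of the 9 that were lower, Dnmt3b being the exception. A match is a description of the letters and no measure of binding.

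Of 21 imprinted growth genes, expressed from the allele of 1 parent, 6 were lower (beside 1.77% of all genes), 1 was higher and 14 were not called, with a median of -0.37. Mest stood at 2839 and 2403 CPM at E10.5 and at 1056 and 1317 CPM at E11.5 (-1.14, SE 0.12, adjusted p = 0.0012). Nnat stood at 1579 and 826 CPM and then at 524 and 391 CPM (-1.34, SE 0.12, adjusted p = 0.000745). Both stayed called without E10.5 replicate 1 (adjusted p = 0.0364 and 0.0119) and without E11.5 replicate 1 (0.00858 and 0.0113). Peg3, Dlk1, Peg10 and the growth factor Igf2 were the other lower members, and Phlda2 was higher. Glycolysis held 4 lower genes of 29 (Eno1, Hk2, Pgk1 and Aldoa), with changes of -0.53 to -0.73 and a list median of -0.22. Eno1 stood at 1507 and 843 CPM and then at 847 and 609.7 CPM, so its groups overlapped and the call rests on the block. Its reads can also be shared with Eno1b, a near copy that was called too. None of 42 cell division genes was called by edgeR at an adjusted p of 0.05, with a median of -0.04. Of these genes 12 had an unadjusted p under 0.05, and DESeq2 called 1 higher and 2 lower.

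Lists of other cell types held called genes as well, beside 3.04% higher and 1.77% lower of all genes. Among 15 muscle precursor genes Des (1.79 and 0.887, then 0.443 and 0.200 CPM) and the acetylcholine receptor gene Chrna1 (3.62 and 1.98, then 0.177 and 0.466 CPM) were lower. Of 15 genes of glia, nerve and melanoblasts Kit (41.7 and 35.4 CPM at E11.5, with a change of 1.10 log2) and Stmn2 were higher, and of 8 mural genes Rgs5 was lower, from 9.49 and 6.21 CPM (-2.05, SE 0.40). The part of these cells in the other results was not tested. None of 20 erythroid or 21 macrophage genes was called by edgeR or by DESeq2 (2 and 2 at an unadjusted p under 0.05), with medians of -0.28 and 0.52. In the fit on the 8 mesoderm libraries 1 erythroid gene was lower and 1 macrophage gene higher, and without ectoderm E11.5 replicate 1 the leukocyte gene Ptprc was higher (1.45, adjusted p = 0.0208). The 5 macrophage markers summed to 17 and 23.3 CPM at E10.5 and to 46.2 and 28.0 CPM at E11.5. Of 31 endothelial genes 1 was lower, Etv2, an early endothelial factor with 70 counts over the E10.5 libraries and 3 over the E11.5 libraries. The 5 endothelial markers summed to 313 and 258 CPM and then to 433 and 324 CPM. In the surface epithelium list 4 of 31 genes were higher (Krt14, Itgb4, Spint1 and Lama5) and 1 lower, Tfap2c, which mesenchyme expresses too (92.9 and 82.1, then 16 and 31.0 CPM). Krt14 stood at 2.66 and 0.341 CPM and then at 14.6 and 6.26 CPM, against 142 to 638 CPM in the ectoderm libraries of the 2 stages. The sum of the epithelial markers, given above, overlapped between the stages, and its part in these 4 genes was not tested. In the stress list Gadd45b and Klf4 were higher and Hspa8 lower, and Fos stood at 0.828 and 0.750 CPM at E10.5 and at 23.6 and 1.13 CPM at E11.5. Fos was as uneven in the ectoderm of the same batches (36.0 and 1.52 CPM at E11.5), and its part in the other results was not tested.

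A further comparison asked which changes differ from those of the ectoderm of the same embryos over the same day. Most mesoderm changes had the same sign in the ectoderm, in 348 of the 471 higher and 219 of the 275 lower genes. The share with the same sign among all tested genes was not counted. The part of the mesenchymal transcripts of ectoderm E11.5 replicate 1 in these counts was not tested. In the ectoderm 434 genes (2.8%) passed. The difference between the layers was called for 105 of 15501 genes (0.677%), with a more positive change in mesoderm for 76 (0.49%) and a more negative one for 29 (0.187%). Of the 746 genes called in mesoderm, 68 were among them. This count depended on the libraries and on the block. It was 0 in a fit on the 8 libraries of E10.5 and E11.5, 4 without the block, 8 without mesoderm E10.5 replicate 1, 13 without mesoderm E11.5 replicate 1, 15 without ectoderm E10.5 replicate 1 and 501 without ectoderm E11.5 replicate 2. With mesoderm E10.5 replicate 2 left out it was 67, with mesoderm E11.5 replicate 2 left out 175, and with ectoderm E10.5 replicate 2 left out 45.

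Several condensation and signalling genes rose in mesoderm while their fitted change in ectoderm was negative or near 0. Sox9 changed by 2.37 log2 in mesoderm and by -0.39 in ectoderm, a difference of 2.76 (SE 0.46, adjusted p = 0.0204). In ectoderm it stood at 32.4 and 24.8 CPM at E10.5 and at 15.8 and 26.8 CPM at E11.5. Bmp2, which the ridge also makes, stood there at 62.3 and 43.4 CPM and then at 21.6 and 27.1 CPM, so that the difference between the layers was 2.65 (adjusted p = 0.0134). Sulf1 (4.84), Dlx5 (1.64), Dlx6 (3.09), Col2a1 (2.35), Fgfr2 (2.29) and Fgfr3 (2.05) differed in the same direction. Col2a1 was far higher in ectoderm than in mesoderm, at 1933 and 1181 CPM at E10.5 and at 715 and 775 CPM at E11.5. The part of carried-over ectoderm in the mesoderm level of Col2a1 was not tested. In the other direction Meis2, at 114 and 93.8 CPM in ectoderm at E10.5 and at 79.3 and 94.8 CPM at E11.5, differed by -1.78 (adjusted p = 0.0142). Hmga2 stood at 723 and 674 CPM in ectoderm and then at 653 and 815 CPM, a difference of -1.33 (adjusted p = 0.0436). For Hoxa11 (-0.28, adjusted p = 0.930), Lin28a (-3.72, SE 1.06, adjusted p = 0.154), Aldh1a2 (-0.26, adjusted p = 0.983) and Shh (-2.89, adjusted p = 0.301) the difference was not called. In the E11.5 ectoderm, part of the signal of mesenchymal genes lies in replicate 1, the library with the higher Prrx1, as for Hoxd13 at 288 CPM there and 38.3 CPM in replicate 2.

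**Figure D5:**
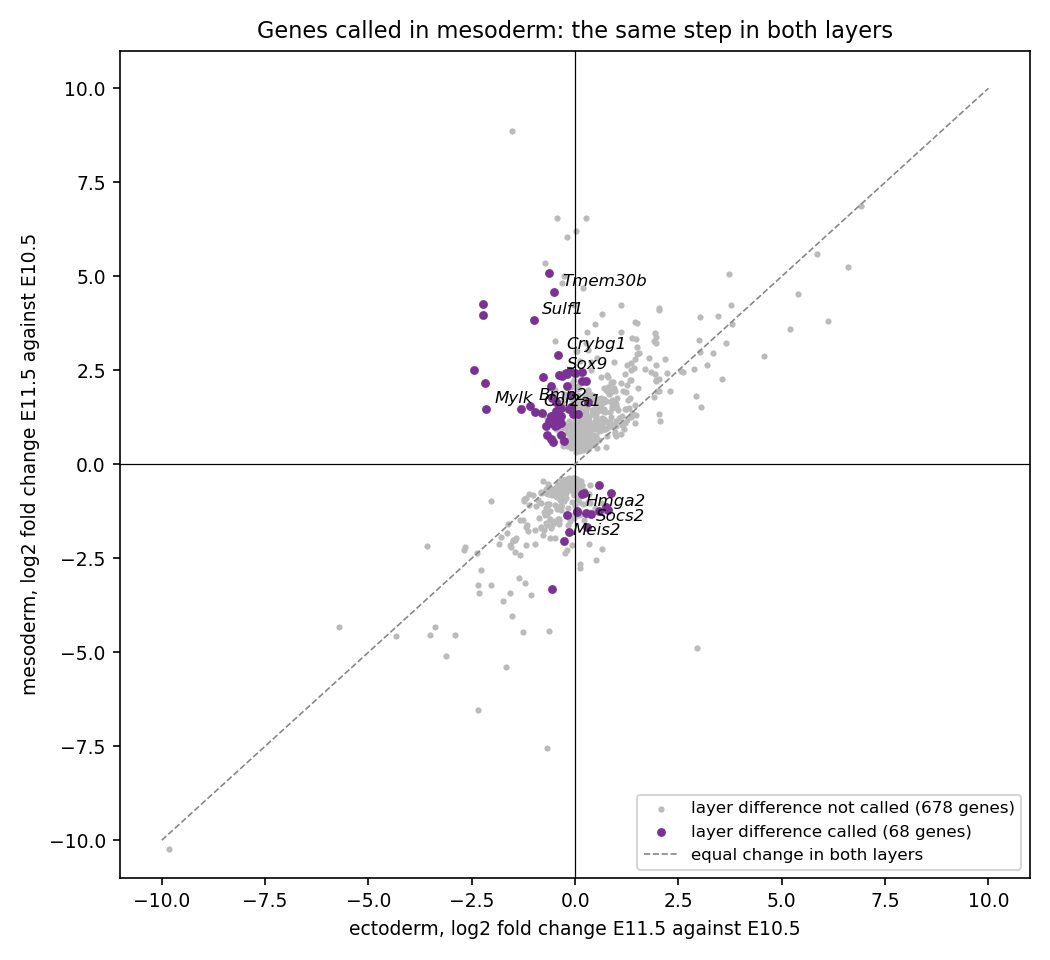
Fitted log2 fold change of E11.5 against E10.5 in ectoderm (x axis) and in mesoderm (y axis) for the 746 genes called in mesoderm, 1 point per gene, purple where the difference between the layers was also called (68 genes) and grey elsewhere; the dashed line marks equal change. Purple points lie away from the line, with Sulf1, Sox9 and Bmp2 above it and Meis2, Hmga2 and Socs2 below.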

How the data were processed

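RNA-seq gene counts of 16 libraries were analysed as the authors deposited them. The deposited FPKM values served in 1 alternative, and the deposited exon-level files were not used here. The submitters' processing notes name STAR 2.6.0c, bedtools 2.27.1, cutadapt and Cufflinks 2.2.1, and the mm10 build; the counting tool and its strand setting are not given in the sources used here. Total counts ran from 10005867 to 30438214.

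All 16 libraries (8 groups of 2) entered 1 edgeR 4.0.16 quasi-likelihood fit (R 4.3.3; TMM, filterByExpr by group), with the replicate number as a block, Benjamini-Hochberg adjustment over 15501 of 53800 genes, and 7 residual degrees of freedom. Same-numbered mesoderm and ectoderm libraries of a stage came from the same embryo batch, per the labels, and replicate differences correlated across genes in all 28 pairs of groups (r 0.4267 to 0.6662). With 2 replicates a group, p-values rest on the spread left after 1 replicate term shared by all stages and layers. The model held no term for the embryo batch that the 2 layers of a stage share. The layer difference was therefore not tested as a paired contrast. On simulated counts (15297 genes) the fit recovered 79% of 2-fold and 96% of 4-fold changes. Of 192 calls there, 8.85% were unchanged genes, which is more than an adjusted p of 0.05 aims at. Whether these rates hold for the real libraries was not tested. In those, E11.5 replicate 1 lay further towards E12.5 than replicate 2 (medians of 59.8% and 39.3%).

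Named genes are a chosen set of limb genes, the 12 largest called changes in each direction (at least 5 CPM, groups not overlapping), the 4 members of each list with the smallest p, and the 6 largest layer differences in each direction. Other list members are named where they were called or bear on a list's description, chosen after their values were seen. Members and lists were chosen with earlier results of these data known. The alternatives were RLE scaling, no filter, DESeq2 1.42.0, no block, a block per layer, fewer libraries, a fold threshold of 1.5, and limma 3.58.1 on log2(FPKM + 0.5) or log2(FPKM + 0.1). Coordinates are from GENCODE M21.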

Additional observations from a re-analysis of the deposited data

Results flagged for a closer look

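For 28 of the 193 named genes the change from E10.5 to E11.5 differed between mesoderm and ectoderm by the edgeR interaction test. Over all tested genes the share was 105 of 15501 (0.677%). Naming took in the 6 largest called layer differences in each direction, so part of the 28 was fixed by the choice. The values are the mesoderm change minus the ectoderm change, on the log2 scale. Genes with a more positive change in mesoderm were Tmem30b (5.09), Sulf1 (4.84), Megf11 (4.36), Mylk (3.61), Crybg1 (3.32), Dlx6 (3.09), Sox9 (2.76), Col9a2 (2.66), Bmp2 (2.65), Aplnr (2.48), Col2a1 (2.35) and Fgfr2 (2.29). Fgfr3 (2.05), Unc5c (1.95), Epha3 (1.93), Dlx5 (1.64), Sema6a (1.61), Kit (1.44) and Bambi (1.1) followed. Genes with a more negative change in mesoderm were Dmd (-2.01), Socs2 (-1.97), Peli3 (-1.86), Eogt (-1.83), Meis2 (-1.78), Mtus1 (-1.69), Hmga2 (-1.33), Epha1 (-1.29) and Nnat (-1.14). The fit on the 8 libraries of E10.5 and E11.5 alone, chosen after seeing the data, called 0 genes for this difference, and the fit without the replicate block called 4. Prrx1 stood at 118 CPM in ectoderm E11.5 replicate 1 and at 34.2 CPM in replicate 2, and the part of that library's mesenchymal transcripts in these differences was not tested.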

How the results depend on the processing

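The number of higher genes (471) was 836 without a low-count filter, 43 with no replicate block, 156 with the 4 compared libraries alone and 91 past a fold of 1.5. The number of lower genes (275) was 587, 18, 89 and 37 under the same settings and 475 with DESeq2. Leaving out 1 of the 4 libraries gave 4 to 584 higher and 5 to 433 lower genes. Without ectoderm E11.5 replicate 1, an alternative chosen after seeing the data, there were 684 and 400. The number of genes whose change differed between the layers (105) was 546 without a filter, 351 with DESeq2, 4 with no replicate block, 18 past a fold of 1.5, and 0 with the 8 libraries of E10.5 and E11.5 (added after seeing the data). Leaving out 1 library gave 8 to 501. The cause of these shifts was not tested, beyond the fewer samples or genes that some settings hold by construction. RLE scaling and a block for each layer kept all 3 counts within 1.5 times.

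Of 111 named genes called, 102 stayed called under RLE scaling, no filter, DESeq2, a block for each layer and the 8 mesoderm libraries, 83 in both FPKM fits, 66 with 4 libraries, 27 with no replicate block and 4 in each of the leave-one-out fits of the 4 libraries. No named gene that was called reversed its direction. Naming favoured called genes and small p, so these numbers do not stand for all called genes. Over all called genes, the fit on the 8 mesoderm libraries kept 332 of 471 higher and 209 of 275 lower genes. Without ectoderm E11.5 replicate 1, 24 further named genes were called, among them Hoxd13, Shox2, Gdf5 and Cyp26b1. With 13757502 counts in the smallest of the 4 libraries, genes under 1 CPM rest on few counts.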
